A study of Mus musculus with 24 samples.

Results

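The circadian clock and its PAR-bZIP output were examined through 10 genes of the count table, chosen by symbol from a list of 10: Per1, Per2, Per3, Dbp, Tef, Nr1d1, Nr1d2, Ciart, Arntl and Bhlhe41. All 10 were found among the 47593 genes of the table, and all 10 passed the filter on low counts in every comparison. Hippocampal poly(A) RNA had been sequenced from male C57BL/6J mice of 8 to 12 weeks, WT or Tob-KO (a whole-animal knockout line). Each genotype had 4 groups of 3 libraries, stated to be biological replicates, naive mice being those not conditioned and the other groups having been culled 15 min, 1 h or 3 h after foot-shock training (contextual fear conditioning), which gave 24 libraries with 28847989 to 41595972 counts each. Mice were kept on a regular light/dark cycle. The time of day of culling is not given in the sources used here, so time after conditioning and time of day cannot be told apart. Counts of Tob1, the targeted gene, were higher in the libraries labelled Tob-KO (log2 fold change 0.56 over all time points, SE 0.035, adjusted p = 4.16e-09, edgeR's quasi-likelihood test), with all 12 above all 12 WT libraries, so every genotype direction below is that of the libraries so labelled.

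The clock of mammalian cells is a transcriptional loop. ARNTL (BMAL1) and its partner CLOCK or NPAS2 bind E-boxes and drive the Per and Cry genes, Nr1d1, Nr1d2, Dbp, Ciart and Bhlhe41. The PER proteins, CIART (CHRONO) and BHLHE41 (DEC2) repress this drive, whereas NR1D1 and NR1D2 (REV-ERB alpha and beta) repress Arntl through ROR elements, so that Arntl peaks in the opposite part of the day to Dbp and Nr1d1. DBP and TEF are PAR-bZIP activators that bind D-boxes, in Per genes among others. Per1 and Per2 are also induced directly by neuronal activity and by glucocorticoids. The level of these genes in a tissue therefore depends on the hour at which it was taken, which is why they can show whether groups of mice differed in clock phase.

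The DNA elements named above are shown for the promoters that carry most of them. RefSeq promoters of GRCm38.p6, from 250 bases before to 50 bases after an annotated start, matched 9 of the 10 genes, Per2 being the exception, and were searched on both strands for the E-box CACGTG, the D-box TTATGTAA or TTACGTAA, the CRE TGACGTCA, and the ROR element TAGGTCA or TGGGTCA. Of all 32851 promoters, 7.15% held an E-box, 1.06% a D-box, 1.79% a CRE and 6.45% a ROR element. The Ciart promoter held 3 E-boxes, at positions -116, -58 and -44 from the start (first base of each), and those of Bhlhe41, Per1 and Tef held 1 each, Per1 in only 1 of its alternative promoters and Tef in both of its own. The Per3 promoter held 2 D-boxes, at -205 and -158. One of the alternative Arntl promoters held a ROR element, at position 31, and no searched element lay in the windows of Dbp, Nr1d1 and Nr1d2. A match is a description of the letters and not a bound site. The stretches with the elements read as follows, with E-boxes (Ciart, Per1, Bhlhe41) or D-boxes (Per3) in capitals:
Ciart, chr3:95882255-95882356, reverse strand: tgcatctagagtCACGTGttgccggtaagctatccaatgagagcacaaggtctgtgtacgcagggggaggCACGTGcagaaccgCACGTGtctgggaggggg
Per3, chr4:151044804-151044882, reverse strand: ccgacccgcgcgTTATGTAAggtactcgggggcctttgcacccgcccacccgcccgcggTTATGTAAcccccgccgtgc
Per1, chr11:69098763-69098808, forward strand: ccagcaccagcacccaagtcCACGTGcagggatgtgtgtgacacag
Bhlhe41, chr6:145865548-145865593, reverse strand: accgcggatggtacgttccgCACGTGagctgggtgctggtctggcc

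All 10 genes were expressed in every library. Levels are given in CPM, in which each library is brought to the same total after TMM normalization over all 24. To compare genes with each other, the CPM was divided by the annotated exon length. On this scale Tef was the most abundant, at 47.6 ± 2.73 CPM per kb (SD, n = 24), followed by Nr1d1 at 26.9 ± 3.88, Nr1d2 at 21.7 ± 2.25, Dbp at 20.3 ± 3.47, Per1 at 17.3 ± 4.08, Per2 at 7.91 ± 1.30, Bhlhe41 at 7.66 ± 0.63, Per3 at 4.95 ± 0.80, Ciart at 4.22 ± 1.03 and Arntl at 3.91 ± 0.35. Neighbours in this order that did not differ beyond their SD were Nr1d2 and Dbp, Dbp and Per1, Per2 and Bhlhe41, Per3 and Ciart, and Ciart and Arntl. The range over libraries also differed between genes. The highest library was 2.83-fold above the lowest for Ciart and 2.44-fold for Per1, but only 1.23-fold for Tef, 1.36-fold for Bhlhe41 and 1.4-fold for Arntl. Exons of Nr1d1 share 263 bases with those of Thra on the opposite strand, which was at 800 CPM on average, and exons of Dbp share 539 bases with those of Sphk2, at 29.1 CPM. Also on the opposite strand, exons of Bhlhe41 share 1280 bases with those of Gm43909 (0.45 CPM), those of Tef 193 with Gm17597 (0.44 CPM) and those of Arntl 33 with Gm45355. The strand setting of the counting is not given, so the counts of these clock genes may hold reads of their neighbours or lack reads from the shared bases. The span of Per3 lies within that of Camta1 on the same strand, without shared exon bases.

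On GRCm38 (1-based, GENCODE annotation) the Period genes lie on different chromosomes, Per1 at chr11:69095217-69109960 on the forward strand, Per2 at chr1:91415982-91459324 and Per3 at chr4:151003652-151044665, both on the reverse strand. Of the PAR-bZIP genes, Dbp lies at chr7:45705088-45710203 and Tef at chr15:81802421-81826863, both forward. The REV-ERB genes are both on reverse strands, Nr1d1 at chr11:98767932-98775333 and Nr1d2 at chr14:18204054-18239127. The repressors Ciart (chr3:95878503-95882251) and Bhlhe41 (chr6:145858243-145865558) are also reverse, and the activator Arntl (chr7:113207465-113314126) is forward. Nr1d1 is 4.55 Mb and Per1 25.1 Mb from Tob1 on the same chromosome.

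**Figure D1:**
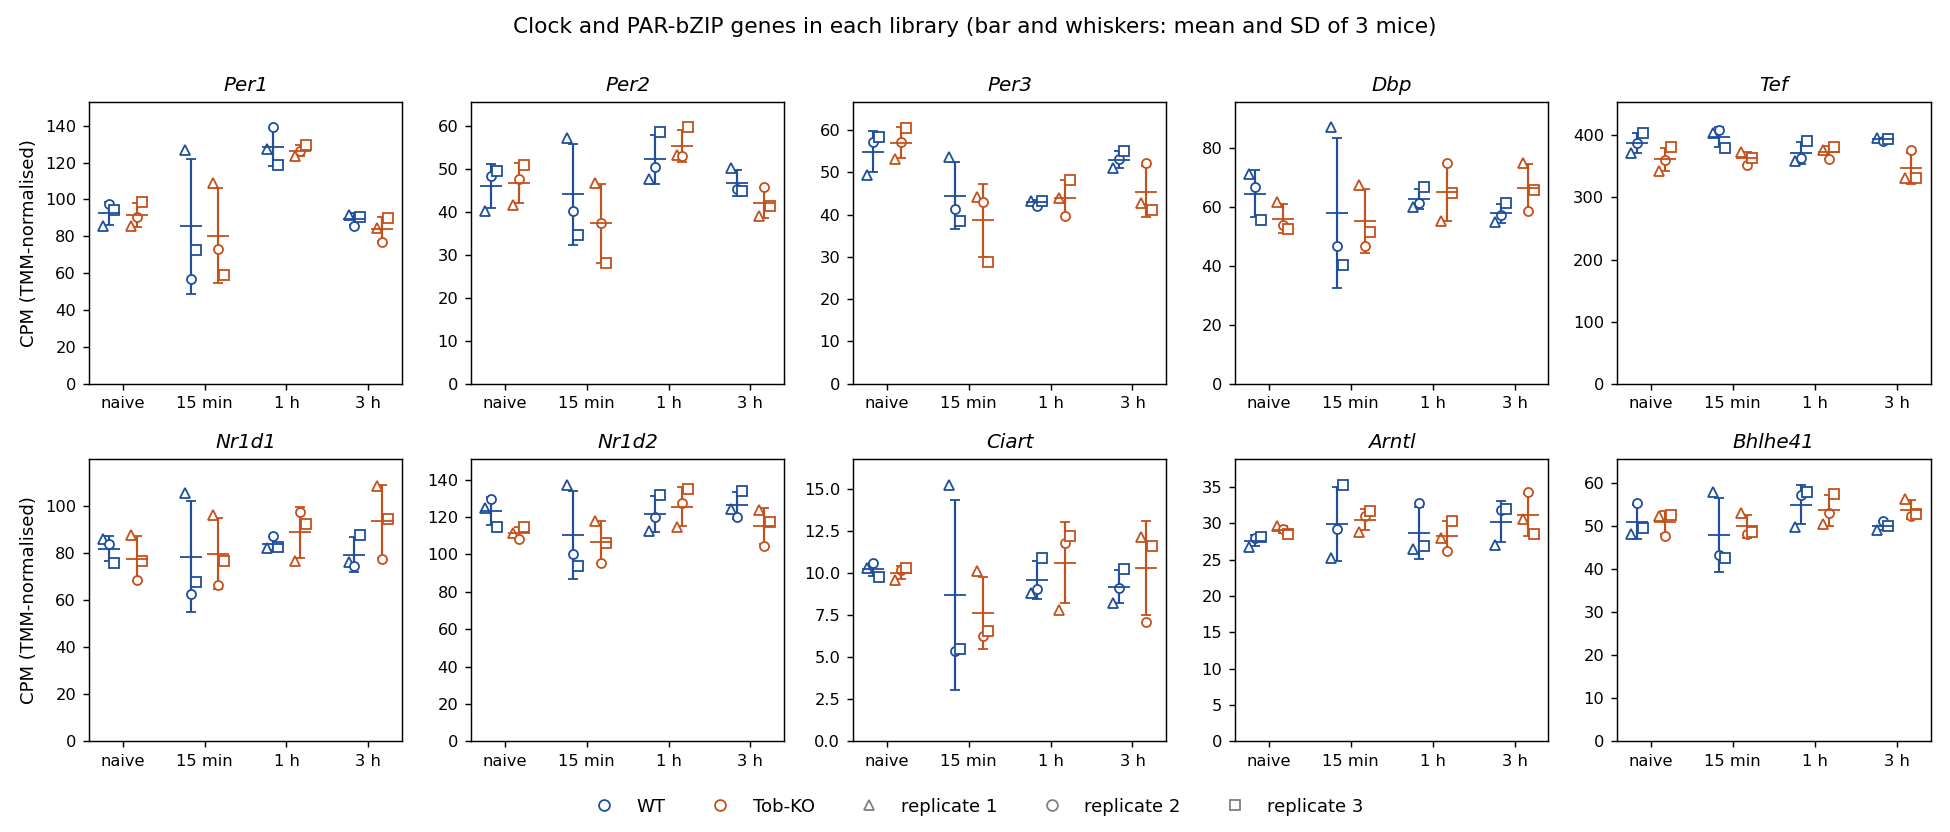
Level of each of the 10 genes (CPM after TMM normalization, vertical axis from 0) by group, from naive to 3 h after conditioning, with WT in blue and Tob-KO in orange. Open symbols are libraries, shaped by replicate number, and bars with whiskers are the mean and SD of 3 libraries; at 15 min the triangles of replicate 1 lie above the other 2 libraries of their group in both genotypes for 8 genes, the exceptions being Tef and Arntl.

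For each time point the genotypes were set against each other in edgeR's exact test, and genes were called at an FDR up to 0.05 with levels at least 2-fold apart. None of the 10 clock genes was called in naive mice, where 0.0218% of 18364 genes were called, nor at 15 min (0.555% of 18364), 1 h (0.033% of 18169) or 3 h (0.0274% of 18255). Without the fold-change limit, with edgeR's quasi-likelihood test and with DESeq2, the count was also 0 at each time point. At an unadjusted p under 0.05 the exact test gave 0 of the 10 in naive mice, 0 at 15 min, 0 at 1 h and 2 at 3 h, namely Per3 and Tef, beside 4.04%, 8.05%, 5.34% and 3.97% of all genes. The log2 fold change of Per3 at 3 h was -0.23 with an adjusted p of 1, and without Tob-KO 3 h replicate 2 it was -0.34 with an adjusted p of 0.0292 in edgeR's exact test, under the fold-change limit. The median log2 fold change of the 10 genes was -0.02 in naive mice, -0.08 at 15 min, 0.04 at 1 h and -0.03 at 3 h, beside 0.01, -0.01, -0.00 and -0.00 over all genes tested.

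Dbp, a PAR-bZIP gene with a strong daily rhythm in many tissues, was at 71.2, 66.9 and 55.6 CPM in naive WT, and naive Tob-KO libraries held 61.9, 53.8 and 52.5 CPM. These ranges overlapped, and the log2 fold change was -0.20 (95% interval -0.43 to 0.03). At 3 h the order was turned, with 55.0, 57.3 and 61.2 CPM in WT and 75.0, 58.8 and 65.6 CPM in Tob-KO, and a log2 fold change of 0.19 (95% interval -0.00 to 0.39). Nr1d1, which encodes REV-ERB alpha, was at 76.0, 74.2 and 87.6 CPM in WT and 108, 77.5 and 94.3 CPM in Tob-KO at 3 h, with a log2 fold change of 0.23 (95% interval -0.03 to 0.49). Neither gene passed the test at 3 h, with an adjusted p of 1 for both in edgeR's exact test. For the activator gene Arntl, the naive libraries were at 26.8, 28.0 and 28.1 CPM in WT, against 29.6, 29.2 and 28.6 CPM in Tob-KO. They did not overlap, but the difference was small (log2 fold change 0.08, 95% interval -0.06 to 0.21). Besides Arntl, the genotypes did not overlap for Nr1d2 in naive mice, Tef at 15 min, and Bhlhe41 and Tef at 3 h, which made 2, 1, 0 and 2 of the 10 genes at the 4 time points, where 11.5%, 13.7%, 11.6% and 12% of all genes tested did not overlap.

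The 95% intervals, which come from edgeR's quasi-likelihood test and not from its exact test, give the genotype differences that these libraries leave possible. In naive mice every interval for the 10 genes lay between -0.43 and 0.26 on the log2 scale. At 15 min the intervals were wider for 9 of the 10 genes, Tef being the exception, and ran from -1.05 to 0.66 for Ciart and from -0.73 to 0.56 for Per1. Intervals that left out 0 belonged to Nr1d2 in naive mice (-0.27 to -0.01), Tef at 15 min (-0.25 to -0.00), and Per3 (-0.43 to -0.03) and Tef (-0.32 to -0.06) at 3 h, each for 1 gene at a time and without correction for the number of genes. For Nr1d2 in naive mice the unadjusted p was 0.0353 in the quasi-likelihood test and 0.0689 in the exact test. For Tef at 15 min these were 0.0496 and 0.0839, so the unadjusted counts depended on the test.

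**Figure D2:**
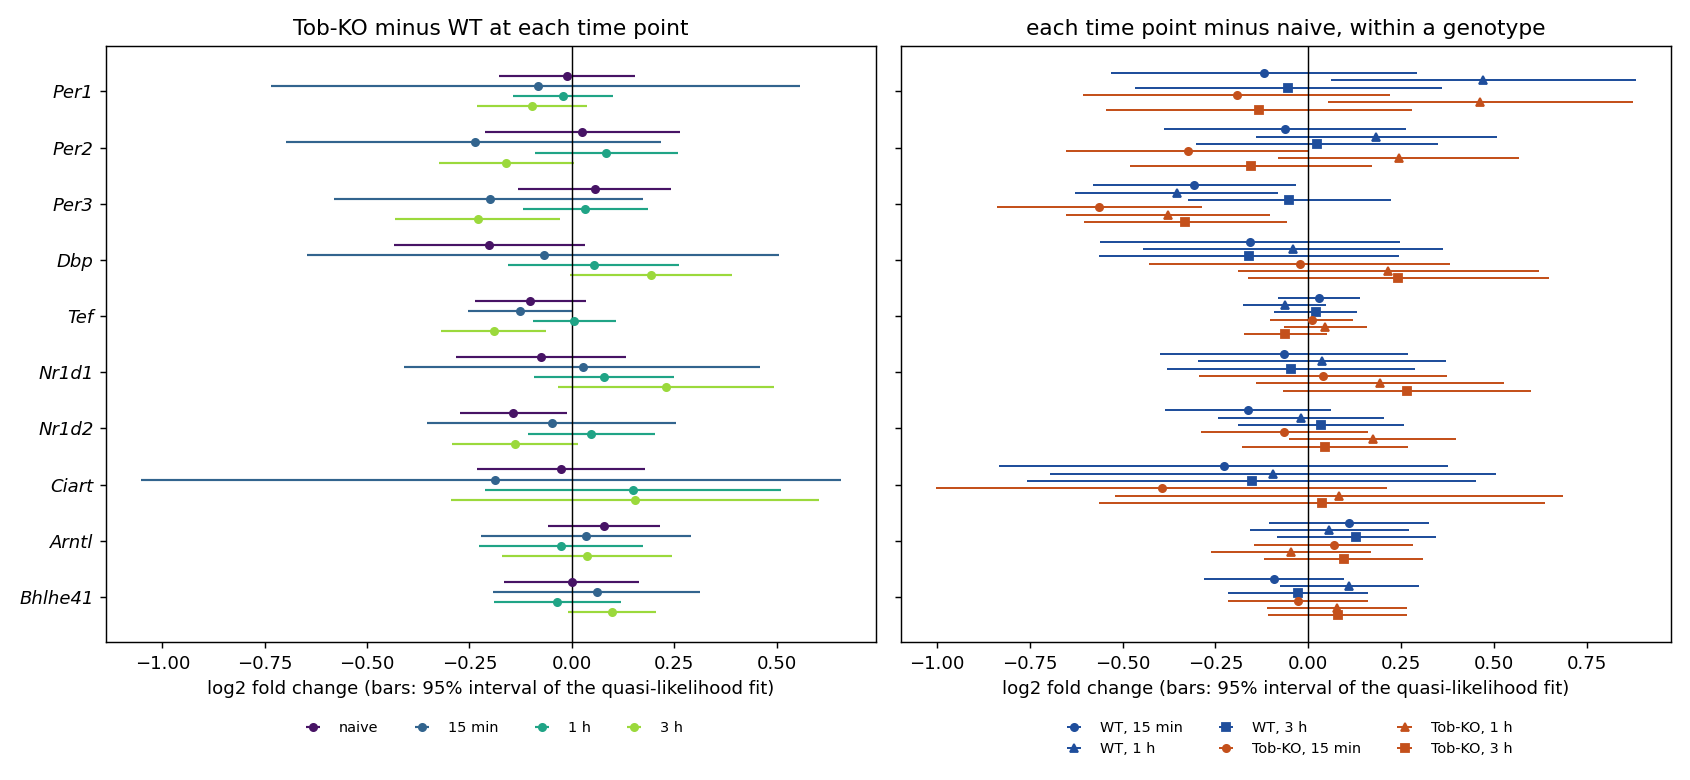
Log2 fold changes of the 10 genes with the 95% interval of edgeR's quasi-likelihood fit as bars (horizontal axis), on the left Tob-KO minus WT at each of the 4 time points and on the right each time point minus naive within WT (blue) and Tob-KO (orange). The intervals at 15 min on the left are the widest for Ciart and Per1, and on the right Per1 at 1 h lies above 0 and Per3 at 15 min and 1 h below 0 in both genotypes.

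Over all 4 time points, with 12 against 12 libraries, 0 of the 10 genes were called between the genotypes in edgeR's quasi-likelihood test (0.421% of 19500 genes were called). Tef alone of the 10 had an unadjusted p under 0.05, beside 13.5% of all genes. Tef was at 372, 388 and 404 CPM in naive WT, and naive Tob-KO libraries held 343, 360 and 380 CPM. At 15 min its level was 404, 409 and 379 CPM in WT, against 373, 352 and 364 CPM in Tob-KO. At 1 h WT libraries held 359, 363 and 391 CPM and Tob-KO libraries 376, 361 and 381 CPM, and at 3 h these were 395, 391 and 395 CPM and 332, 376 and 332 CPM. The Tob-KO libraries were lower than all WT libraries of their time point at 15 min and 3 h, partly lower in naive mice and intermingled at 1 h. The log2 fold change of Tef was -0.10 (SE 0.027, adjusted p = 0.0849). DESeq2 called Tef (adjusted p = 0.0166), with 1.42% of all genes called, and edgeR did so without Tob-KO 3 h replicate 2 (log2 fold change -0.12, adjusted p = 0.0435), with 0.221% called. The change over time did not differ between genotypes beyond the spread for any of the 10 genes (interaction of genotype and time, 0 called and 0 at an unadjusted p under 0.05, lowest adjusted p = 0.953, 0% of 19500 genes called; DESeq2 also called 0 of the 10).

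Against naive mice, only Per1 and Per3 of the 10 genes reached an unadjusted p under 0.05 in any group. Each time point was compared with naive mice of the same genotype in edgeR's quasi-likelihood fit of all 24 libraries, with an FDR of at most 0.05 and no fold-change limit. In WT, 0 of the 10 genes were called at 15 min (0.0462% of 19500 genes called), 0 at 1 h (0.185%) and 0 at 3 h (0%), and DESeq2 also called 0 at each. At an unadjusted p under 0.05 there were 1, 2 and 0 of the 10, beside 8.71%, 10.8% and 3.99% of all genes. In Tob-KO, 1 of the 10 was called at 15 min (2.51% of all genes), 0 at 1 h (1.13%) and 0 at 3 h (0%), with 1, 2 and 1 at an unadjusted p under 0.05, beside 17.3%, 15.6% and 10.6% of all genes, and 1, 0 and 0 called by DESeq2. None of these counts was more than 1 gene above what the share of all genes gives for 10 genes. The called gene was Per3, which was lower, as were 1.68% of all genes.

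Per1 was at 85.8, 97.8 and 94.2 CPM in naive WT and at 127, 139 and 119 CPM at 1 h. In Tob-KO it was at 85.8, 90.7 and 98.8 CPM in naive mice and at 124, 126 and 130 CPM at 1 h. In both genotypes all 3 libraries at 1 h were above all 3 naive libraries, and at 3 h, with 91.6, 85.8 and 90.6 CPM in WT and 84.8, 76.9 and 89.9 CPM in Tob-KO, the level was again within or below the naive range. The log2 fold change at 1 h was 0.47 in WT (SE 0.20, adjusted p = 0.38) and 0.46 in Tob-KO (SE 0.20, adjusted p = 0.256), which the fit of 24 libraries did not call. That fit shares its estimate of the spread with the 15 min libraries, in which Per1 ranged widely. On the 6 libraries compared alone, edgeR's exact test gave Per1 an adjusted p of 1.09e-05 in WT and 4.63e-07 in Tob-KO, with 1% and 1.95% of all genes called, and the quasi-likelihood test gave 0.0629 and 0.0162, with 0.148% and 0.671% called.

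Per2 followed Per1 less clearly. Its libraries at 1 h were at 47.8, 50.4 and 58.6 CPM in WT and 53.3, 53.0 and 59.7 CPM in Tob-KO, against 40.1, 48.4 and 49.4 CPM and 41.6, 47.7 and 51.0 CPM in naive mice. The ranges overlapped in WT and not in Tob-KO. The log2 fold changes were 0.18 (SE 0.16, adjusted p = 0.729) and 0.24 (SE 0.16, adjusted p = 0.472) in edgeR's quasi-likelihood test.

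Per3, the third Period gene, was lower than in naive mice in several groups and passed the test in 1 of them. In naive mice it was at 49.3, 57.1 and 58.4 CPM in WT, against 53.2, 57.3 and 60.5 CPM in Tob-KO. At 15 min its level was 53.5, 41.4 and 38.5 CPM in WT, which overlapped naive WT, whereas Tob-KO libraries held 44.3, 43.1 and 28.7 CPM, which lay below all naive Tob-KO libraries. In Tob-KO at 15 min Per3 fell by 0.56 (log2) (SE 0.13, adjusted p = 0.0293, edgeR's quasi-likelihood test), where 1 of 5 endothelial and 2 of 6 astrocyte markers were called higher (0.836% of all genes), whose part in the result was not tested. Its log2 fold change in WT was -0.31 (SE 0.13, adjusted p = 0.544). The call in Tob-KO rested on single libraries: the log2 fold change was -0.38 (adjusted p = 0.226) without Tob-KO 15 min replicate 3, -0.56 (adjusted p = 0.0706) without naive Tob-KO replicate 2 and -0.52 (adjusted p = 0.0885) without naive Tob-KO replicate 3. On the 6 libraries alone the adjusted p was 0.064 in edgeR's exact test and 0.248 in its quasi-likelihood test, and 0.119 with the replicate number as a block, while the block in the fit of 24 libraries gave 0.0395. At 1 h Per3 was at 43.3, 42.2 and 43.3 CPM in WT, against 43.8, 39.6 and 48.3 CPM in Tob-KO, below all naive libraries in both genotypes. The log2 fold changes of -0.35 and -0.38 (SE 0.13 for both, adjusted p = 0.306 and 0.154) were not called in the fit of 24 libraries, whereas the exact test on 6 libraries gave 0.0106 and 0.0107. At 3 h WT libraries were back at 51.0, 53.1 and 54.9 CPM, and Tob-KO libraries were at 42.9, 52.3 and 41.1 CPM, still below naive Tob-KO without overlap (log2 fold change -0.33, SE 0.13, adjusted p = 0.421).

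The genes that did not overlap with naive mice were Per1 and Per3 in WT at 1 h, Per3 in Tob-KO at 15 min, Per1, Per2 and Per3 in Tob-KO at 1 h, and Per3 in Tob-KO at 3 h. These made 2, 1, 3 and 1 of the 10 genes, where 16.1%, 19.4%, 20.7% and 15.2% of all genes tested did not overlap. In WT at 15 min and 3 h it was 0 of the 10, against 10.6% and 9.59% of all genes.

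Several clock genes had a wider spread at 15 min than in naive mice, but not Tef nor, in Tob-KO, Bhlhe41. Bhlhe41 there had an SD of 2.69 CPM, and 2.72 CPM in naive mice. In WT the SD was largest at 15 min for every gene but Tef. In Tob-KO it was so for Per1, Per2, Per3, Dbp and Nr1d2. For Dbp and Nr1d2 it was 10.8 and 11.4 CPM, only slightly above the 9.82 and 10.3 CPM of 1 h. Ciart, Arntl and Nr1d1 had smaller Tob-KO SDs at 15 min (2.14, 1.46 and 15.1 CPM) than at 3 h (2.78, 2.91 and 15.5 CPM). Ciart, the E-box repressor with 3 E-boxes in the promoter shown above, was at 10.3, 10.6 and 9.8 CPM in naive WT and at 15.2, 5.4 and 5.5 CPM in WT at 15 min. In Tob-KO it was at 9.6, 10.2 and 10.3 CPM in naive mice and at 10.1, 6.3 and 6.6 CPM at 15 min. In each genotype the library numbered 1 was the high one at 15 min and the other 2 lay below all naive libraries. Dbp was at 87.1, 46.6 and 40.3 CPM in WT and 67.3, 46.7 and 51.5 CPM in Tob-KO at 15 min. Per1 was at 127, 57.1 and 72.3 CPM in WT and 109, 73.1 and 59.2 CPM in Tob-KO. Nr1d1 was at 105, 62.5 and 67.6 CPM in WT and 96.2, 66.3 and 76.6 CPM in Tob-KO. For each of these genes the library numbered 1 was again the highest of its group in both genotypes. Nr1d2, whose product shares the targets of REV-ERB alpha, was at 137, 100.3 and 93.6 CPM in WT and 118, 95.2 and 106 CPM in Tob-KO. Bhlhe41 was at 57.9, 43.2 and 42.6 CPM in WT and 53.0, 48.1 and 48.5 CPM in Tob-KO. These too were highest in the library numbered 1, as was Per2, at 57.3, 40.3 and 34.7 CPM in WT and 46.6, 37.4 and 28.2 CPM in Tob-KO. Arntl had the opposite order, with 25.2, 29.2 and 35.3 CPM in WT and 28.9, 31.0 and 31.7 CPM in Tob-KO, where the library numbered 1 was the lowest of its group in both genotypes. Over all 24 libraries, WT 15 min replicate 1 was the highest for Dbp, Nr1d2 and Ciart and the lowest for Arntl, and the lowest libraries for Per1, Per2, Per3, Dbp, Nr1d1, Nr1d2, Ciart and Bhlhe41 were all from 15 min.

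**Figure D3:**
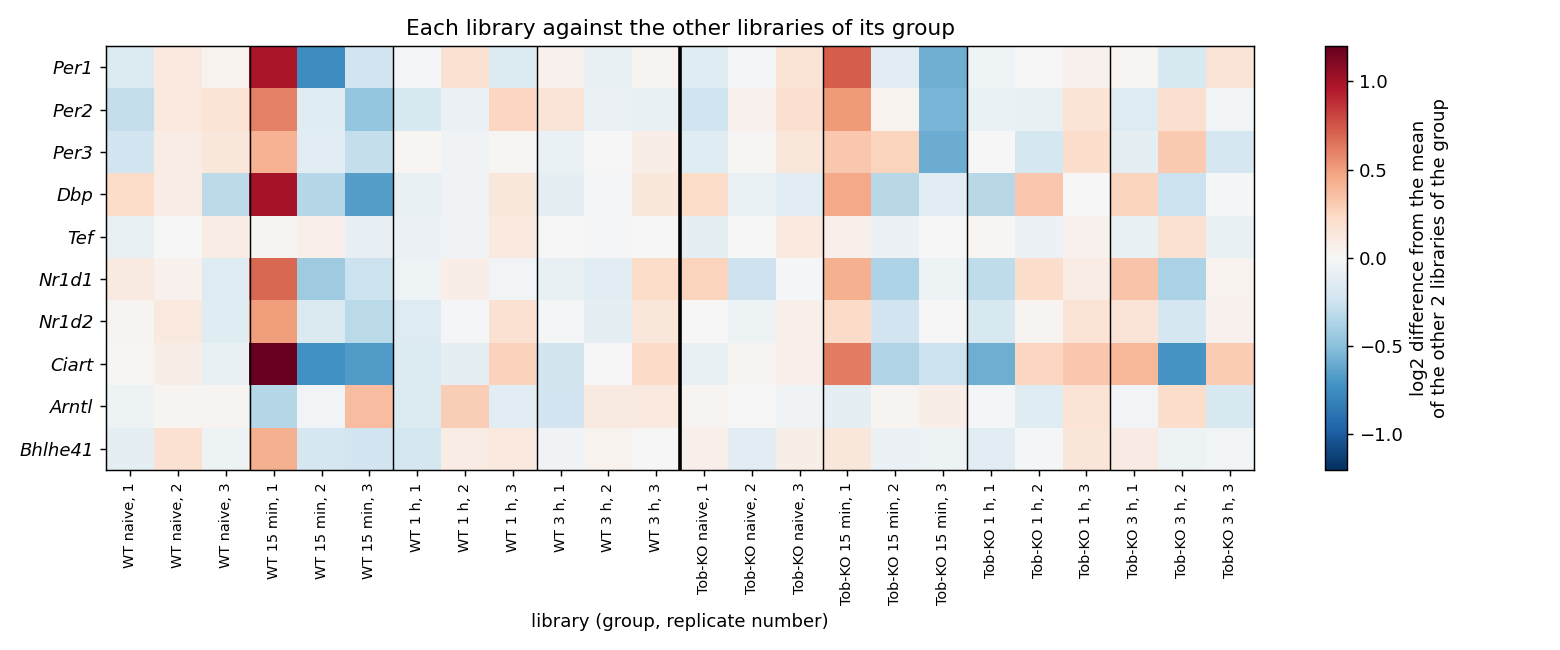
Log2 difference of each library from the mean of the other 2 libraries of its group (colour, red higher and blue lower) for the 10 genes in rows and the 24 libraries in columns, WT left and Tob-KO right of the thick line. WT 15 min replicate 1 and Tob-KO 15 min replicate 1 are red in the rows of 9 genes and blue in the row of Arntl.

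The deviation was measured in every library as the log2 difference from the mean of the other 2 libraries of its group. In WT 15 min replicate 1 the median absolute deviation was 0.55 over the 10 genes and 0.093 over the 10082 genes with a mean of at least 10 CPM, and 5 of the 10 genes, but 1.47% of these 10082, deviated by more than 0.5. In Tob-KO 15 min replicate 1 the medians were 0.38 and 0.060, with 3 of the 10 genes and 1.18% of the 10082 beyond 0.5. In the 18 libraries from naive mice, 1 h and 3 h the median over the 10 genes was 0.041 to 0.21, and at most 1 of the 10 deviated by more than 0.5. Of the other 4 libraries of 15 min, only WT replicate 3 had a median above these 0.041 to 0.21, at 0.31. The medians were 0.19 in WT replicate 2 and 0.18 and 0.10 in Tob-KO replicates 2 and 3, within that range. Beyond 0.5 were 2 genes each in WT replicates 2 and 3, and 0 and 3 genes in Tob-KO replicates 2 and 3. In groups of 3 a library that stands apart also moves the mean against which the others are measured. A list of 20 other clock genes had medians of 0.13 and 0.10 in the 15 min libraries numbered 1, within the range of 0.061 to 0.20 that it had in the 18 libraries of the other time points. These values describe the libraries and were not tested, since the libraries were singled out by these genes.

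Other measures also differed between the 15 min libraries, and their part in the result was not tested. The summed level of 11 immediate early genes, which neurons induce within minutes of activity, was 1260 CPM in WT 15 min replicate 1 against 629 and 735 CPM in the other 2, and 942 CPM in Tob-KO 15 min replicate 1 against 522 and 658 CPM. The summed level of 12 glucocorticoid-responsive genes was 539 against 457 and 548 CPM in WT, where replicate 1 did not stand apart, and 532 against 412 and 410 CPM in Tob-KO, where it was the highest. The 12 choroid plexus markers, genes of the secretory tissue beside the hippocampus, summed to 38.8 against 54.2 and 53.5 CPM in WT and to 76.3 against 3410 and 1306 CPM in Tob-KO, and none of them was at 0 in any library. Blood genes, such as those of haemoglobin, summed to 131 against 67.6 and 77.6 CPM in WT and to 52.7 against 40.1 and 53.9 CPM in Tob-KO, so replicate 1 was the highest in WT only. Endothelial markers summed to 181 against 243 and 184 CPM in WT and to 164 against 176 and 185 CPM in Tob-KO, and the sums of microglial and oligodendrocyte markers were also lowest in replicate 1 of both groups. With the choroid plexus score as a covariate, the only one of these lists so fitted, the counts of clock genes called did not change in any comparison of the 24-library fit, and Per3 in Tob-KO at 15 min had an adjusted p of 0.0207. The 10 markers of hippocampal neurons summed to 6120 to 7335 CPM over the 24 libraries, with none at 0 in any library. At 15 min they summed to 6432 against 6678 and 6676 CPM in WT and to 6441 against 6855 and 6464 CPM in Tob-KO, lowest in replicate 1 of both. Astrocyte markers were lowest in replicate 1 in WT (2015 against 2444 and 2275 CPM) but not in Tob-KO (2085 against 2062 and 2303 CPM). Bulk RNA cannot tell fewer cells of a type from less RNA per cell.

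Mice culled 3 h and 15 min after conditioning were compared over both genotypes in the same fit. None of the 10 genes was called (2.99% of 19500 genes called; DESeq2 also called 0), with 1 at an unadjusted p under 0.05 (17% of all genes), and 9 of the 10 had a log2 fold change above 0 (49.3% of all genes). Beside this, 5 of 5 endothelial markers, 2 of 6 astrocyte markers and 2 of 6 blood genes were called lower at 3 h than at 15 min (1.85% of all genes), and their part in the result was not tested. For 0 of the 10 the libraries of the time points did not overlap (2.06% of all genes). With both 15 min libraries numbered 1 left out, a choice made after these genes had been seen, 7 of the 10 were called, all higher at 3 h (2.71% of all genes were called, 1.12% as higher). Ciart had the largest log2 fold change of these, 0.72 (adjusted p = 0.00818, edgeR's quasi-likelihood test), followed by Dbp with 0.43 (adjusted p = 0.0141), Per1 with 0.41 (adjusted p = 0.00344), Per3 with 0.38 (adjusted p = 0.0312), Per2 with 0.34 (adjusted p = 0.0424), Nr1d1 with 0.34 (adjusted p = 0.0471) and Nr1d2 with 0.29 (adjusted p = 0.014). Tef, Arntl and Bhlhe41 were not called. Without WT 15 min replicate 1 alone, Nr1d2 and Ciart were called (log2 fold change 0.25 with adjusted p = 0.0305, and 0.59 with adjusted p = 0.0317), with 3.18% of all genes called. In the fit without both libraries, Per1, Per2 and Per3 were called lower at 15 min than in naive Tob-KO mice (log2 fold change -0.47 with adjusted p = 0.0281, -0.51 with 0.0493 and -0.67 with 0.0182, where 1.17% of all genes were called, 0.768% as lower), 0 of the 10 were called in WT at 15 min (0.0361% of all genes called), and Per1 was called higher at 1 h in WT and in Tob-KO (adjusted p = 0.0188 and 0.013, with 0.288% and 1.16% of all genes called, 0.227% and 0.541% as higher). Since these libraries were left out for their levels of the same genes, these calls are no independent evidence of a difference between the groups.

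The ratio of Dbp to Arntl sums up the opposite ends of the loop, and is given as the log2 of CPM plus 0.5 for Dbp minus that for Arntl. In WT it was 1.39, 1.24 and 0.97 in naive mice, 1.77, 0.67 and 0.19 at 15 min, 1.17, 0.89 and 1.30 at 1 h, and 1.01, 0.84 and 0.93 at 3 h. In Tob-KO it was 1.05, 0.87 and 0.87 in naive mice, 1.21, 0.59 and 0.69 at 15 min, 0.97, 1.5 and 1.08 at 1 h, and 1.28, 0.77 and 1.19 at 3 h. The genotypes overlapped at each time point. Both the highest ratio of the 24, in WT 15 min replicate 1, and the lowest, in WT 15 min replicate 3, came from 1 group. The SD over 3 libraries was 0.81 in WT at 15 min, 0.33 in Tob-KO at 15 min and at most 0.28 in the other 6 groups.

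**Figure D4:**
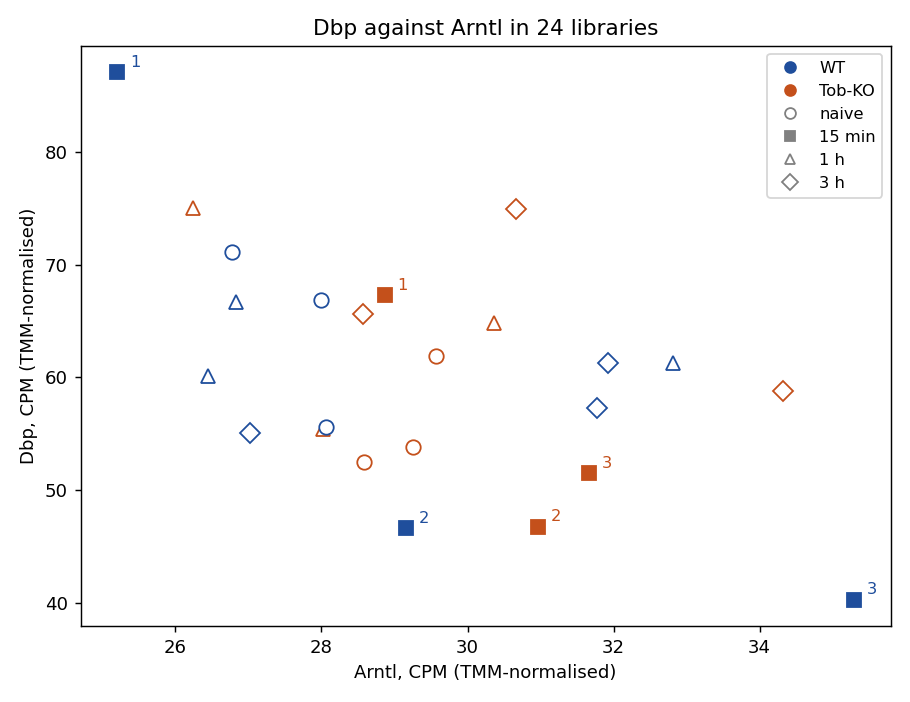
Level of Dbp (vertical axis, CPM) against that of Arntl (horizontal axis, CPM; neither axis starts at 0) in the 24 libraries, WT in blue and Tob-KO in orange, with the 15 min libraries as filled squares labelled by replicate number. The WT 15 min libraries numbered 1 and 3 lie at opposite corners, at 87.1 and 40.3 CPM of Dbp and 25.2 and 35.3 CPM of Arntl.

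Levels of several clock genes went together across the 24 libraries. The relation of Dbp with each of the other 9 genes was computed on the log2 scale, with 100000 permutations and Benjamini-Hochberg adjustment over the 9 relations. For Nr1d1 Pearson's r was 0.90 (permutation p = 1e-05, the smallest the permutations can give, adjusted 2.25e-05) and Spearman's rho 0.90 (permutation p = 1e-05, adjusted 4.5e-05). For Ciart r was 0.87 and rho 0.80, with the same permutation p-values. For Nr1d2 r was 0.82 (permutation p = 1e-05, adjusted 2.25e-05) and rho 0.76 (permutation p = 8e-05, adjusted 0.00018), and for Bhlhe41 r was 0.78 (permutation p = 1e-05, adjusted 2.25e-05) and rho 0.73 (permutation p = 7e-05, adjusted 0.00018). These 4 relations held without the 2 libraries farthest from the median of Dbp, WT 15 min replicates 1 and 3, with r of 0.90, 0.81, 0.74 and 0.67. They also held for deviations from the group means, with r of 0.91, 0.90, 0.90 and 0.78, that is, among mice of the same group. Per1 (r 0.58, permutation p = 0.00296, adjusted 0.00533; rho 0.46, permutation p = 0.0239, adjusted 0.0365) had an r of 0.51 without those 2 libraries and 0.69 within groups. For Per2 r was 0.47 (permutation p = 0.0202, adjusted 0.026) and rho 0.33 (permutation p = 0.112, adjusted 0.144), and r dropped to 0.28 without the 2 libraries. Arntl ran against Dbp (r -0.54, permutation p = 0.00685, adjusted 0.0103; rho -0.46, permutation p = 0.0243, adjusted 0.0365), with an r of -0.59 within groups, but r was -0.26 without those 2 libraries, so this relation rested largely on them. Per3 (r 0.18, permutation p = 0.39, adjusted 0.439; rho 0.06, permutation p = 0.773, adjusted 0.773) and Tef (r -0.13, permutation p = 0.549, adjusted 0.549; rho -0.16, permutation p = 0.45, adjusted 0.506) showed no relation with Dbp past the threshold. The permutations treat the 24 libraries as exchangeable although they come in 8 groups.

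Among the 14449 genes with a mean of at least 1 CPM, the genes with the highest r to Dbp were Nr1d1, Ciart and Nr1d2, in this order, and Bhlhe41 was at rank 6. Outside the 10 clock genes the most alike were Hirip3 (r 0.80), Slc25a44 (r 0.79) and Sult2b1 (r 0.74). Sult2b1 lies 19.8 kb from Dbp on chromosome 7. For Per1 they were Zcchc2 (r 0.90), Zbtb11 (r 0.90) and Bhlhe40 (r 0.88), the last encoding DEC1, the close relative of BHLHE41, while Per2 was at rank 16 (r 0.83). For Arntl they were Add1 (r 0.73), C330018D20Rik (r 0.70) and Otud6b (r 0.69). Each r is over 24 libraries that share their groups, and is a description.

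Other genes of the clock pathway, a list of 20 that holds the partners Clock and Npas2, the Cry repressors, the ROR genes, the PAR-bZIP gene Hlf and its antagonist Nfil3, gave 0 calls between the genotypes at each of the 4 time points (1, 0, 0 and 3 of the 20 at an unadjusted p under 0.05 in edgeR's exact test) and 0 in WT over time (2 at 15 min, 4 at 1 h and 1 at 3 h in its quasi-likelihood test). Of all genes, 4.04%, 8.05%, 5.34% and 3.97% had such a p between the genotypes, and 8.71%, 10.8% and 3.99% in WT over time. In Tob-KO at 15 min, where 2.51% of all genes were called, 1 of the 20 was, Arntl2, which encodes an alternative partner of CLOCK. It was at 9.51, 7.01 and 8.03 CPM in naive Tob-KO and at 5.80, 6.56 and 3.83 CPM at 15 min, without overlap (fell by 0.60 on the log2 scale, SE 0.16, adjusted p = 0.0478, edgeR's quasi-likelihood test). In WT it was at 8.28, 8.16 and 9.18 CPM in naive mice and at 7.92, 5.94 and 6.35 CPM at 15 min. At 1 h and 3 h in Tob-KO and between 3 h and 15 min the count was 0 of 20, with 6, 0 and 6 at an unadjusted p under 0.05, beside 15.6%, 10.6% and 17% of all genes.

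The inducible lists moved over the same time points. Of the 11 immediate early genes, 6 were called higher in WT and 9 in Tob-KO at 15 min, 2 and 7 at 1 h and 0 and 0 at 3 h (0 and 0 also at an unadjusted p under 0.05). Of all genes, 0.0462% were called higher in WT and 0.836% in Tob-KO at 15 min, and 0.118% and 0.421% at 1 h. At 3 h it was 0% in both, with 3.99% and 10.6% at an unadjusted p under 0.05. Fos had log2 fold changes of 1.67 in WT (adjusted p = 0.0196) and 2.59 in Tob-KO (adjusted p = 0.000231) at 15 min in edgeR's quasi-likelihood test. Naive Fos was lower in Tob-KO, at 6.60, 4.08 and 8.89 CPM against 14.5, 14.8 and 12.9 CPM in WT. Between the genotypes 8 of the 11 had an unadjusted p under 0.05 in edgeR's exact test in naive mice, 1 at 15 min, 3 at 1 h and 9 at 3 h. The shares of all genes were 4.04%, 8.05%, 5.34% and 3.97%, and 0 of the 11 were called at each. Their median log2 fold changes were -0.54, -0.31, -0.05 and -0.50. Over all time points it was 11 of the 11 in the quasi-likelihood test (13.5% of all genes), with a median of -0.35 and 0 called. The interaction of genotype and time called 0 of the 11, so a difference in induction between the genotypes was not shown. Of the 12 glucocorticoid-responsive genes, 0 were called in WT (5 at an unadjusted p under 0.05, beside 8.71% of all genes) and 5 in Tob-KO at 15 min, all 5 lower (Fkbp5, Hif3a, Plin4, Sult1a1 and Tsc22d3), and 1, Pdk4, was called higher in WT at 1 h. Of all genes at 15 min, 0% were called lower in WT and 1.68% in Tob-KO, so WT had no call in that direction in any gene. Between 3 h and 15 min, 6 of the 12 were called higher (1.14% of all genes) and 10 of the 11 immediate early genes lower (1.85%). Hif3a was also called lower in Tob-KO than in WT at 15 min (log2 fold change -1.24, adjusted p = 0.000461 from edgeR's exact test). Some genes of these lists vary with the time of day in several tissues as well, and their part in the differences of the Period genes was not tested.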

How the data were processed

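The authors sequenced poly(A) RNA with a directional kit and mapped it with STAR 2.6.1d to GRCm38. They counted with HTSeq 0.9.0 and deposited raw counts, whole numbers per gene and library. Strand setting and annotation are not given in the sources used here. PCR reads are not independent molecules. The members and lists were chosen with earlier results of these data known. The text names the 10 genes, listed genes that were called, exon neighbours, Tob1 and the 3 genes most correlated with Dbp, Per1 and Arntl.

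Groups came from the labels. Genotypes were compared with edgeR 4.0.16 (R 4.3.3; exact test, TMM, at least 0.2 CPM in 2 libraries, FDR and p of at most 0.05, fold change of at least 2; SE and intervals from its quasi-likelihood test). The study states no test over time, so quasi-likelihood contrasts in a fit of 24 libraries were used. Replicate numbers recur in all groups. No label says that equal numbers pair mice. Same-numbered deviations from group means had r over 0.1 in every pair only between naive and 15 min Tob-KO (0.56, 0.60 and 0.15) among the groups compared. There the choroid plexus markers summed to 80.0, 4988 and 2399 CPM in naive replicates 1 to 3 and to 76.3, 3410 and 1306 CPM at 15 min. Their part in these r was not tested, so whether the numbers pair mice is not known. The fit without the replicate number as a block was the reported one in every comparison, also this one. A blocked fit was an alternative in each, and its results for Per3 in Tob-KO at 15 min are given above. DESeq2 1.42.0, RLE, other filters and left-out libraries were alternatives. Scripts were checked on simulated data. Coordinates and exon lengths are from GENCODE M21 (GRCm38), and promoters from RefSeq (GRCm38.p6).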

Additional observations from a re-analysis of the deposited data

How the results depend on the processing

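Of 229 recomputed counts of clock genes called, 211 stayed equal or within 1.5 times and 18 moved, and 0 of the recomputed fold changes, levels and ratios reversed. The reported count was 0 in every comparison but Tob-KO at 15 min against naive mice, so most of the unchanged counts were 0 against 0. In Tob-KO at 15 min against naive mice, the 1 call became 0 with a fold-change limit of 2, with the quasi-likelihood or exact test on 6 libraries and with the replicate block on 6 libraries, 0 to 1 with single libraries left out, and 3 without both 15 min libraries numbered 1. At 1 h the 0 calls became 2 with the exact test on 6 libraries in both genotypes, 1 with the quasi-likelihood test or the replicate block on 6 libraries in Tob-KO, and 1 in each genotype without both 15 min libraries numbered 1. Between 3 h and 15 min the 0 calls became 0 to 2 with single libraries left out and 7 without both. Over all time points the 0 calls became 1 with DESeq2 and 0 to 1 with single libraries left out. The replicate block in the fit of 24 libraries changed no call, and the 4 comparisons of the genotypes and the interaction stayed at 0 calls under every alternative, although Per3 at 3 h (-0.34, adjusted p = 0.0292) passed the FDR without Tob-KO 3 h replicate 2 and only the fold-change limit kept it out. The cause of these moves was not tested, except that fits of 6 libraries hold no 15 min libraries at 1 h.

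Counts over all genes moved more, from 102 to between 0 and 252 for the genotypes at 15 min, from 4 to between 1 and 53 in naive mice, from 6 to between 0 and 155 at 1 h and from 5 to between 0 and 16 at 3 h. Over time they moved from 9 to between 0 and 46 (WT, 15 min), 36 to between 0 and 183 (WT, 1 h), 490 to between 5 and 945 (Tob-KO, 15 min), 220 to between 0 and 671 (Tob-KO, 1 h) and 583 to between 38 and 969 (3 h against 15 min), from 82 to between 4 and 276 over all time points, and from 0 to at most 23 at 3 h. The number of libraries, 3 per group, limits how small a difference could be called.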
